A study of Mus musculus with 6 samples.

Results

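The globin and red cell transcripts are 9 genes used by red blood cells or their precursors. These are the alpha globin genes Hba-a1 and Hba-a2, the beta globin genes Hbb-bs and Hbb-bt, and Alas2, Slc4a1, Ahsp, Bpgm and Fech. They were taken by name from the 47561 features listed for each library, and 9 of 9 were found. They were measured by RNA sequencing in neutrophils sorted by flow cytometry from the peripheral blood of mice. There were 3 control libraries (genotype control, treatment negative control) and 3 libraries (treatment AVP) taken after 30 days of AVP administration. The abbreviation AVP is not spelled out in the labels, and for strain, age, dose and route no information was at hand. Nothing in them says whether a group's 3 samples are different mice, so a p-value here speaks only of the spread among 6 libraries, part or all of which may be technical.

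Haemoglobin carries oxygen and is built from pairs of alpha and beta globin chains, each holding a haem group. Red cell precursors make globin messages in great excess before they lose the nucleus, and young red cells in blood, the reticulocytes, still hold that RNA. Alas2 and Fech encode the first and the last enzyme of haem synthesis in red cell precursors, Ahsp a chaperone that holds free alpha globin, Slc4a1 the band 3 anion exchanger of the red cell membrane, and Bpgm the enzyme that makes the bisphosphoglycerate which loosens oxygen from haemoglobin. Neutrophils are not known as a source of haemoglobin, so the globin genes serve here as a reading of red cell RNA in the sorted samples. That reasoning does not cover the other members, and whether their RNA came from red cells alone was not tested.

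Levels are given in FPKM, fragments scaled to transcript length and to library size, as deposited. The most common product of FPKM and gene length among pseudogenes was taken as 1 fragment. This put the depth of a library at an estimated 14199000 to 16845000 fragments. Only 33 to 68 of the 1316 to 1470 pseudogenes above 0 in a library stood at that step, so the estimate is rough. The neutrophil markers S100a8 and S100a9 together took 18.4% to 23.9% of the summed FPKM. The sum of the 12 neutrophil markers was 170336 to 190335 FPKM in controls and 166178 to 194625 FPKM after AVP. Most of that sum was S100a8 and S100a9, so it is not a separate sign of the labelled cell type. Ngp, Camp and Ltf of the same list were listed at 0 in 1, 3 and 5 libraries, and its other genes were above 0 in every library. Of the other markers, the 6 B cell genes, led by Igkc and Cd79a, summed to 4893 to 7745 FPKM in controls and 1258 to 4839 FPKM after AVP, and the 8 monocyte genes, led by Ctss and Ly6c2, to 502 to 1096 and 209 to 1025 FPKM. The 10 platelet genes, led by Pf4 and Ppbp, summed to 135 to 201.5 and 103 to 266 FPKM, with Gp6 and Tubb1 at 0 in every library. The 6 basophil genes, led by Mcpt8 and Prss34, summed to 0 to 15.3 FPKM in controls and 0 to 325 FPKM after AVP. The sum of the 7 T cell genes, led by Trac and Cd3d, was at most 13.7 FPKM outside AVP replicate 3, where it was 112 FPKM, and that of the 6 NK cell genes, led by Nkg7 and Gzma, at most 4.69 FPKM outside the same library, where it was 47.4 FPKM. The 5 eosinophil genes, led by Siglecf and Il5ra, summed to 3.11 to 12.7 FPKM, and the 4 progenitor genes, among them Cd34 and Mpo, were listed at 0 throughout.

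The 4 globin genes were among the 7 most abundant features of every library. Hba-a1 was at 29942, 42948 and 40680 FPKM in control replicates 1 to 3 and at 77895, 36972 and 41451 FPKM in AVP replicates 1 to 3. Hba-a2 was at 22016, 34245 and 30119 FPKM in the controls, against 55985, 25994 and 30037 FPKM in the AVP libraries. The groups overlapped for both alpha genes, and 1 library, AVP replicate 1, stood above the other 5, by 1.81 times the next highest for Hba-a1 and 1.63 times for Hba-a2. Hbb-bs was at 30572, 44866 and 39304 FPKM in the controls, against 63475, 33780 and 37939 FPKM in the AVP libraries. Hbb-bt was at 20099, 32748 and 29389 FPKM in the controls, against 45146, 22489 and 25923 FPKM in the AVP libraries. For the beta genes AVP replicate 1 was again highest, by 1.41 and 1.38 times the next library, and control replicate 1 was the lowest library for each of the 4 genes.

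**Figure D1:**
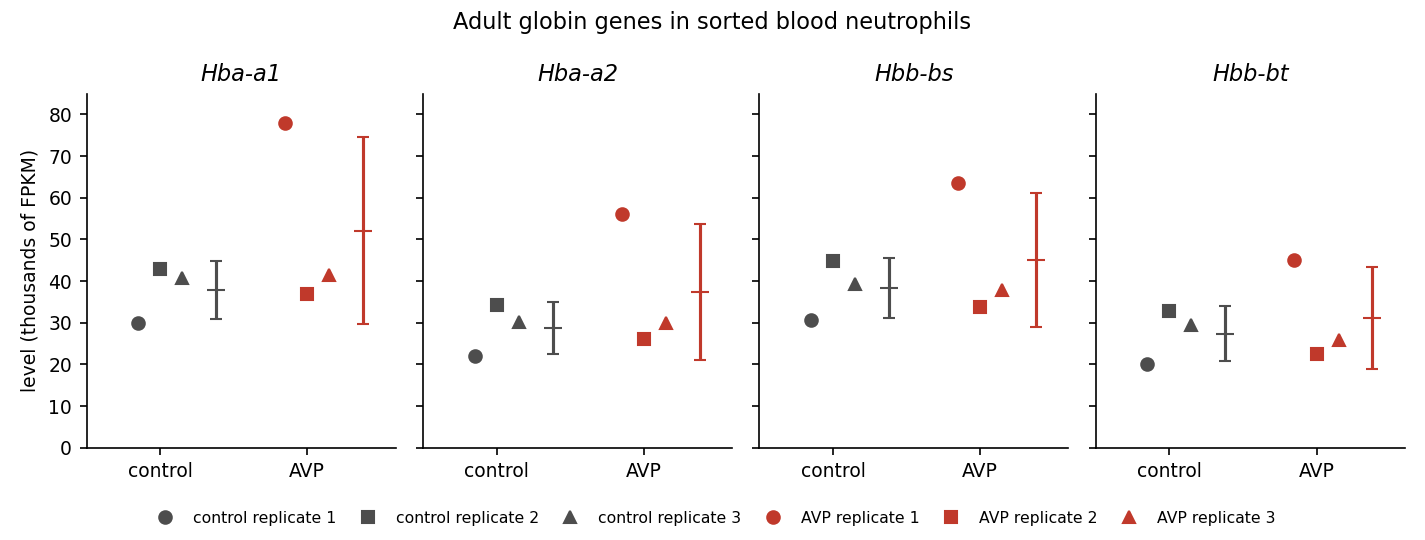
Level of each adult globin gene in FPKM (vertical axis, in units of 1000) in the 3 control and 3 AVP libraries (points, 1 per library; cross bars, mean with SD). AVP replicate 1 lies above the other 5 libraries in all 4 panels, and the remaining libraries of both groups share 1 range.

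The members of each globin pair are near-identical copies, so the division of fragments within a pair is uncertain. In the GENCODE M21 transcripts of GRCm38, the assembly of the mm10 build, the coding sequences of Hba-a1 and Hba-a2 (426 bases each) differed at 1 base and those of Hbb-bs and Hbb-bt (441 bases each) at 1 base, and neither change altered the encoded residue. The stretches that hold the difference are shown because they are the only coding bases that tell the copies apart. The capital marks the differing base, C381T from Hba-a1 to Hba-a2 and C417T from Hbb-bs to Hbb-bt, counted from the first base of the start codon.
Hba-a1 coding bases 351 to 411: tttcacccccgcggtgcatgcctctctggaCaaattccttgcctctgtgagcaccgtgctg
Hba-a2 coding bases 351 to 411: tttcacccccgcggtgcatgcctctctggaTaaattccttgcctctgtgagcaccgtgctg
Hbb-bs coding bases 387 to 441: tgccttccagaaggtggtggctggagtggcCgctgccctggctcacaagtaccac
Hbb-bt coding bases 387 to 441: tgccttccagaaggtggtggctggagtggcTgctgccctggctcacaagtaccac
A read of 151 bases, the length the labels give, would be identical in both copies at 265 of the 549 positions of the Hba-a1 transcript (48.3%) and at 280 of the 478 positions of the Hbb-bs transcript (58.6%). No such window of Hba-a1 occurs in Hbb-bs, whose coding sequences are 55.1% identical. The other alpha and beta pairings were not compared.

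The globin promoters are shown because the 4 genes are read out together. In RefSeq for GRCm38.p6, Hba-a1 lies on chromosome 11 from 32283672 to 32284486 and Hba-a2 from 32296492 to 32297310, and Hbb-bs lies on chromosome 7 from 103826523 to 103827928 and Hbb-bt from 103812524 to 103813923. The 120 bases before each annotated start follow, 5′ to 3′ on the gene's strand, with motif matches in capitals. The motifs searched in the 250 bases before the start were TGATAA and AGATAA for GATA factors, CCACCC for KLF factors and the CCAAT box, each on both strands. The TATA box TATAAA was searched on the gene's strand alone. Only these exact letters were searched, so a promoter without a match may still hold another form of the site.
Hba-a1, chr11:32283552-32283671, + strand: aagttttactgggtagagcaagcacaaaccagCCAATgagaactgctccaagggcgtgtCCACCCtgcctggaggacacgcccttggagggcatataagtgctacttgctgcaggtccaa
Hba-a2, chr11:32296372-32296491, + strand: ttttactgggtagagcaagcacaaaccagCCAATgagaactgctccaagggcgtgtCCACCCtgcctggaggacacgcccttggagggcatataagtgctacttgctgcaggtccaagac
Hbb-bs, chr7:103827929-103828048, − strand: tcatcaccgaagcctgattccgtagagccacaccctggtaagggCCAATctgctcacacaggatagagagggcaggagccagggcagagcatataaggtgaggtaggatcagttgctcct
Hbb-bt, chr7:103813924-103814043, − strand: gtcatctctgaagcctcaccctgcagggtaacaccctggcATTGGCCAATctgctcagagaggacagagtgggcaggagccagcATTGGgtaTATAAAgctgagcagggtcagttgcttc
Alas2, chrX:150547297-150547416, + strand: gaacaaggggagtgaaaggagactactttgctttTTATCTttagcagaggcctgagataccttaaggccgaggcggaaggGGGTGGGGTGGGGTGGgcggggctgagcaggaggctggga
The 2 alpha promoters were 97.6% identical when their 250 bases were aligned, and the 2 beta promoters 68.4%. All 4 globin promoters held CCAAT, which 33.8% of the 32851 promoters in the table hold. TGATAA, found in 7.94% of promoters, lay further upstream in both alpha genes, and AGATAA, found in 9.99%, in Hbb-bs upstream of the bases shown and in Alas2, where its reverse complement is in capitals. CCACCC, found in 28.1% of promoters, was in both alpha genes, in Hbb-bt upstream of the bases shown and 3 times, overlapping, on the other strand in Alas2. TATAAA, found in 7.59%, was in Hbb-bt alone among these 5. Bpgm, the sixth member in the table, held CCAAT 3 times and none of the other motifs. These matches are descriptions of the letters and were not related to the levels.

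Summed over the 4 genes, haemoglobin RNA was at 102629, 154806 and 139493 FPKM in the controls, against 242501, 119235 and 135349 FPKM in the AVP libraries. As a share of all FPKM in a library this was 13.6%, 19.0% and 17.6% in controls and 29.2%, 15.1% and 17.0% after AVP. The share averaged 16.7% ± 2.81 (SD, n = 3) in controls and 20.4% ± 7.67 (SD, n = 3) after AVP. That difference of 3.71 percentage points was smaller than the spread within the AVP group (exact permutation test, two-sided, p = 0.7, where 3 libraries against 3 cannot give less than 0.1). Without AVP replicate 1 the difference turned to -0.69 percentage points. Against the S100a8 and S100a9 sum of the same library, the haemoglobin sum stood at a ratio of 1.58 in AVP replicate 1 and 0.569 to 0.857 in the other 5. In bulk samples, more red cells and more RNA per red cell cannot be told apart. AVP replicate 1 also held the most basophil RNA (325 FPKM summed, at most 15.3 FPKM elsewhere) and the least B cell RNA (1258 FPKM, 3788 FPKM or more elsewhere). Their part in the haemoglobin level was not tested.

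The ratio of beta to alpha globin RNA was nearly constant within the controls, at 0.975, 1.01 and 0.970, and lower in each AVP library, at 0.811, 0.894 and 0.893. The groups did not overlap, with 0.984 ± 0.0191 (SD, n = 3) in controls and 0.866 ± 0.0474 (SD, n = 3) after AVP, a log2 difference of -0.18. By exact permutation (two-sided) p was 0.1, which 3 against 3 libraries cannot better, and 0.3 once adjusted over the 6 ratios tested. AVP replicate 1 had the lowest ratio, and without it the log2 difference was -0.14. Groups that do not overlap cannot come to overlap when a library is left out, so only the size of the difference could change. As the copies are hard to tell apart, each beta copy was also set against each alpha copy, a choice made after seeing the data. Hbb-bs over Hba-a1 was 0.966 to 1.04 in controls and 0.815 to 0.915 after AVP, and Hbb-bt over Hba-a2 was 0.913 to 0.976 and 0.806 to 0.865. Hbb-bt over Hba-a1 was 0.671 to 0.763 in controls and 0.580 to 0.625 after AVP. The narrowest gap was for Hbb-bs over Hba-a2, at 1.305 to 1.39 in controls and 1.13 to 1.2996 after AVP. The AVP libraries lay below the controls in all 4 pairings, which share the same values and are not separate observations.

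Within the pairs, Hba-a1 over Hba-a2 was 1.36, 1.25 and 1.35 in controls and 1.39, 1.42 and 1.38 after AVP. Here too the groups did not overlap, although the log2 difference was only 0.08 (exact permutation test, two-sided, p = 0.1, adjusted p = 0.3). This ratio rests on how near-identical reads were assigned. Hbb-bs over Hbb-bt was 1.52, 1.37 and 1.34 in controls and 1.41, 1.502 and 1.46 after AVP, and the groups overlapped (exact p = 0.5, adjusted p = 0.6). The 3 ratios varied little next to the levels: over the 6 libraries the highest was 1.24, 1.13 and 1.14 times the lowest, while the globin genes themselves ranged over 2.08 to 2.60 times.

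**Figure D2:**
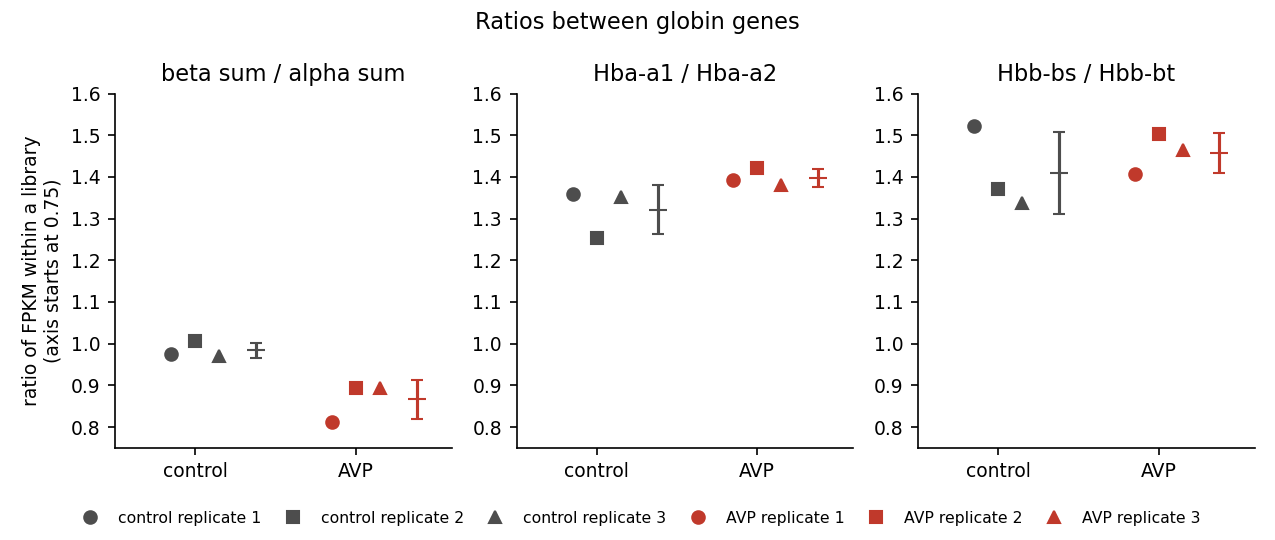
Ratio of FPKM within a library (vertical axis, starting at 0.75) for the beta sum over the alpha sum, Hba-a1 over Hba-a2 and Hbb-bs over Hbb-bt, with 1 point per library and cross bars for mean and SD. The 3 AVP libraries, at 0.811 to 0.894, lie below the 3 controls, at 0.970 to 1.01, in the first panel.

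Alas2, the erythroid form of the first haem enzyme, was the most abundant of the other members but far below the globins. It was at 32.1, 44.7 and 64.0 FPKM in the controls, against 53.2, 68.2 and 45.7 FPKM in the AVP libraries. The groups overlapped, and AVP replicate 1, highest for every globin, ranked behind AVP replicate 2 and control replicate 3 for Alas2. Fech, the ferrochelatase that puts iron into the haem ring, was at 8.28, 13.5 and 19.9 FPKM in the controls, against 18.3, 23.9 and 21.7 FPKM in the AVP libraries. The groups overlapped only through control replicate 3, which lay above AVP replicate 1. Bpgm was at 15.6, 21.02 and 31.9 FPKM in the controls, against 28.2, 24.9 and 18.2 FPKM in the AVP libraries, with control replicate 3 highest and control replicate 1 lowest. The 3 genes shared their lowest library, control replicate 1, with the globins.

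Slc4a1 was listed at 0 in all 3 controls and in AVP replicate 3, and at 0.406 and 4.95 FPKM in AVP replicates 1 and 2. It did not reach 1 FPKM in 3 libraries and was not tested. In RefSeq GRCm38.p6 it lies on chromosome 11 from 102348820 to 102365281, Alas2 on chromosome X from 150547417 to 150570622 and Bpgm on chromosome 6 from 34476356 to 34505136. Ahsp was at 13.9 FPKM in control replicate 1, at 13.0 and 21.1 FPKM in AVP replicates 1 and 2, and listed at 0 in the other 3 libraries. It passed the filter through exactly these 3. A listed 0 may be a failed estimate in such values: of 6102 features that reached 10 FPKM in some library, 1658 (27.2%) were listed at 0 in another. The 2 genes therefore give no steady reading of red cell RNA here, and AVP replicate 2, where both were highest, was among the 2 lowest libraries for each globin.

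**Figure D3:**
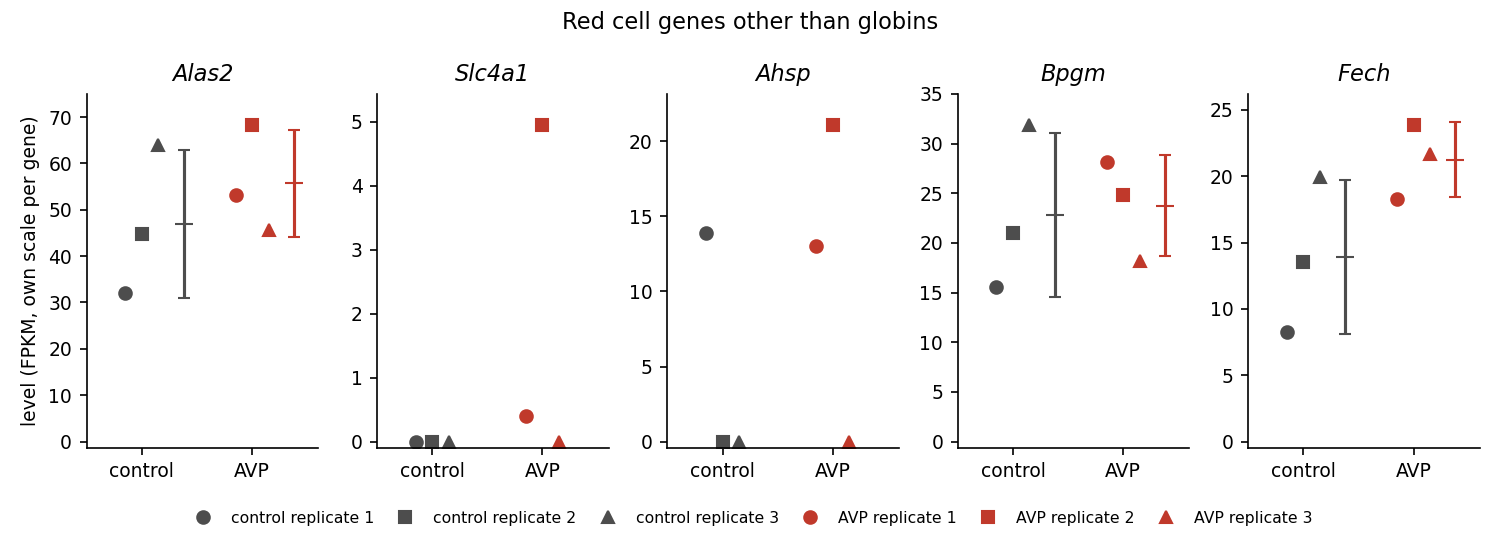
Level in FPKM (vertical axis, with a scale of its own for each gene) of the 5 members other than globins in the 3 control and 3 AVP libraries. Points are libraries, cross bars are mean with SD where no library is at 0. Slc4a1 and Ahsp are listed at 0 in 4 and 3 libraries.

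Relative to the haemoglobin sum, Alas2 was at 3.13, 2.88 and 4.58 FPKM per 10000 FPKM of haemoglobin in controls and at 2.194, 5.72 and 3.38 after AVP. Bpgm was at 1.52, 1.36 and 2.28 per 10000 in controls and at 1.161, 2.08 and 1.345 after AVP. Fech was at 0.807, 0.874 and 1.43 per 10000 in controls and at 0.753, 2.0003 and 1.59998 after AVP. For each of the 3 genes AVP replicate 1 had the lowest proportion, and the groups overlapped (exact permutation tests, two-sided, p = 1, 0.5 and 0.5 with adjusted p = 1, 0.6 and 0.6). The 3 proportions share the haemoglobin sum, which in AVP replicate 1 was 1.57 times that of the next library. They are therefore not separate observations. The proportion of Alas2 to haemoglobin ranged over 2.61 times between libraries and that of Fech over 2.66 times, against 1.24 times for beta over alpha. Without AVP replicate 1, Fech per haemoglobin was higher in both remaining AVP libraries than in the controls, though the exact permutation p was 0.2. For Fech that was the only AVP library below any control, so leaving it out fixed the separation. With any other library left out the groups overlapped for Fech, and the log2 difference ranged from 0.13 to 0.84. Without AVP replicate 2, Bpgm per haemoglobin was lower in both remaining AVP libraries than in the controls (exact permutation p = 0.2).

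The 7 members above 0 in every library did not all peak in the same library. On the log2 scale, after scaling the libraries, the difference between each globin and the haemoglobin sum, of which it is a part, had an SD over the 6 libraries of 0.038 to 0.080. For Bpgm, Alas2 and Fech against the haemoglobin sum the SD was 0.38, 0.49 and 0.57, near the SD of each gene on its own (0.40, 0.40 and 0.55). Against Alas2 the SD was 0.20 for Bpgm and 0.27 for Fech, smaller than for any globin (0.47 to 0.52). Of 4545 other genes with a mean of at least 5 FPKM, 16 stood in a steadier proportion to Alas2 than Bpgm did, and 64 than Fech did. To the haemoglobin sum, 128 of the 4545 stood steadier than Bpgm, 410 than Alas2 and 733 than Fech. Bpgm, Alas2 and Fech were far lower in level than the globins, and how much that widened their SD was not tested. These are descriptions over 6 libraries, and all genes of a library share its depth and scaling.

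**Figure D4:**
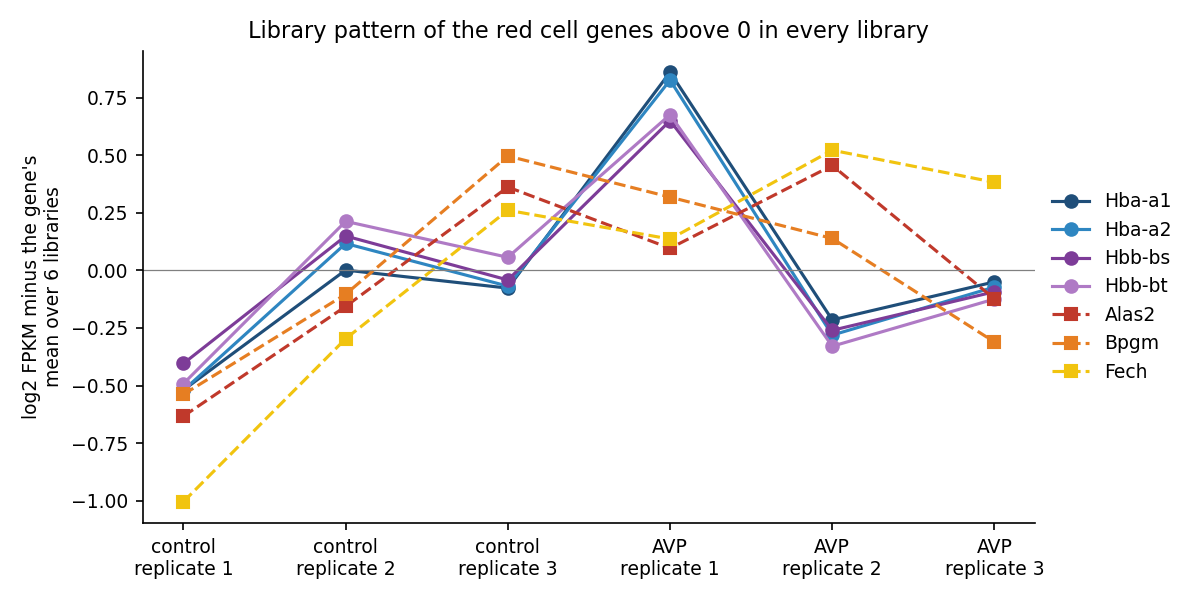
Log2 FPKM of each of the 7 members above 0 in every library, minus its mean over the 6 libraries (vertical axis), by library. Lines join the points of a gene only to show which belong together. The 4 globins peak in AVP replicate 1, while Alas2, Bpgm and Fech do not.

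The non-member genes in the steadiest proportion to the haemoglobin sum were Sgpl1, Rlf, Psma2, Atg2a, Trir and Chd4, with an SD of the log2 ratio of 0.14 to 0.19 over the 6 libraries, where the sum itself had an SD of 0.50. Sgpl1, which encodes a lyase that breaks down sphingosine phosphate, was at 8.89, 16.5 and 13.1 FPKM in the controls, against 21.4, 9.83 and 10.7 FPKM in the AVP libraries. Psma2, a proteasome subunit gene, was at 127, 173 and 128 FPKM in the controls, against 238, 124 and 135 FPKM in the AVP libraries. Each of these 6 was highest in AVP replicate 1, and without that library 0 of them were among the 6 steadiest. For Alas2 the 6 were Sod1, Arf1, Gapdh, Stat3, Pik3cg and Ifi35 (SD 0.097 to 0.16). Sod1, the cytosolic superoxide dismutase found in red cells and most other cells, was at 120, 153 and 212 FPKM in the controls, against 169, 216 and 167 FPKM in the AVP libraries. Without AVP replicate 1, 3 of these 6 were still among the 6 steadiest, Sod1 first.

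Between groups, limma on log2(FPKM + 1) called 0 of the 8 members tested at an adjusted p under 0.05, where it called 0% of all 8523 features tested. At an unadjusted p under 0.05 it gave 0 of the 8, against 8.47% of all features. For 0 of the 8 did the groups not overlap, against 14.0% of the tested features. The groups also overlapped for Slc4a1, which was not tested. Fech had a log2 fold change of 0.73 (SE 0.45, 95% interval -0.30 to 1.75) and an adjusted p of 0.739. Hba-a1 had one of 0.48 (SE 0.33, interval -0.28 to 1.24) and an adjusted p of 0.775. Fold changes were 0.40 for Hba-a2, 0.28 for Hbb-bs, 0.23 for Hbb-bt, 0.36 for Alas2 and 0.17 for Bpgm, and 1.51 (SE 1.45) for Ahsp, with adjusted p of 0.822 to 0.935. The intervals reach past a doubling for Hba-a1, Hba-a2, Alas2, Bpgm, Fech and Ahsp, so they do not exclude a doubling of these genes.

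All 8 tested members had a fitted fold change above 0, with a median of 0.38, beside -0.04 over all features. These values moved with single libraries. Without AVP replicate 1, 4 of 7 tested members lay above 0 and the median was 0.01. Hbb-bs then had a fold change of -0.05, Hbb-bt of -0.13 and Bpgm of -0.01, while Alas2 was at 0.33 and Fech at 0.77. Without control replicate 1, the lowest library for the globins, Alas2, Bpgm and Fech, 6 of 7 lay above 0 and the median was 0.12. Bpgm was then at -0.07, Alas2 at 0.12 and Fech at 0.42.

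**Figure D5:**
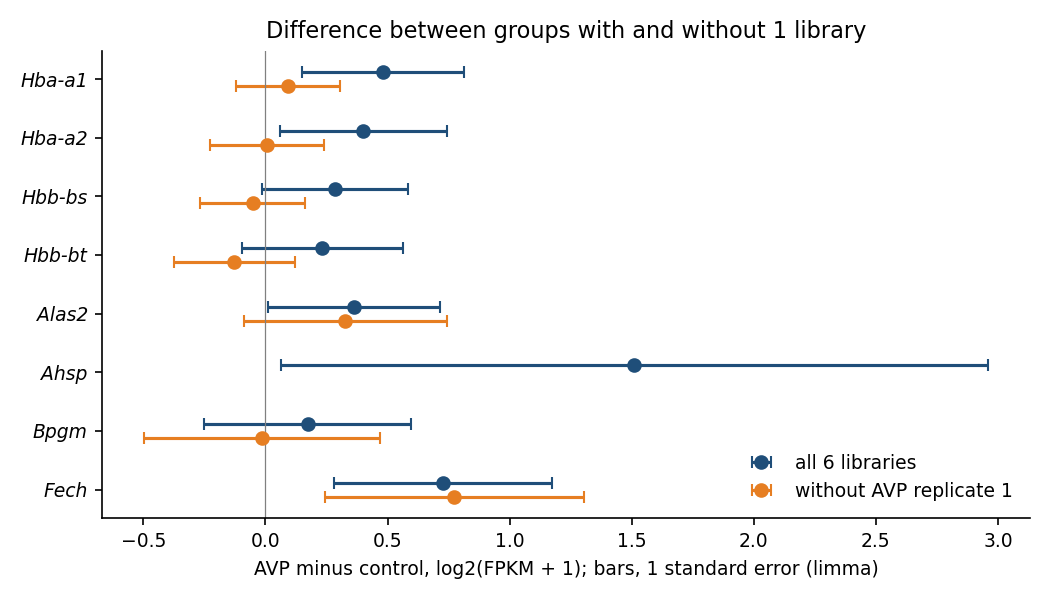
Fitted difference between AVP and control on the log2(FPKM + 1) scale (horizontal axis) for the 8 tested members, with bars of 1 standard error from limma, for all 6 libraries and without AVP replicate 1. Without that library the globins lie between -0.13 and 0.09, and Fech stays at 0.77; Ahsp has no value there because it no longer passes the filter.

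Other genes of the red cell lineage were taken from 7 lists. Of 95 found, 21 were listed at 0 in all 6 libraries and 43 passed the filter. Of the 43, limma called 0 in either direction, as it called 0% of all features tested. At an unadjusted p under 0.05 limma gave 4 of the 43, against 8.47% of all features. Of the 43, 29 lay above 0 and 14 below (median log2 fold change 0.30), beside 4080 above and 4443 below over all features (median -0.04). The groups did not overlap for 2 of the 95 with AVP higher and 4 with AVP lower, against 14.0% of the tested features in either direction. The 95 include genes that were not tested, so these counts and that share have unlike bases. Among the genes that did not overlap, Ubb, Ube2b, Tmem14c and Lmo2 were tested. Of 15 transcription factors and receptors, 6 were at 0 throughout, among them Gata1 and Klf1, which drive the red cell program, and Epor, the erythropoietin receptor. Nfe2 (66.7, 55.0 and 60.2 FPKM in controls, 36.4, 55.7 and 34.3 FPKM after AVP), Lmo2 and Bcl11a had the highest means of that list, and each is also used outside the red cell lineage. Lmo2, an adaptor of transcription complexes, was at 24.7, 19.3 and 60.3 FPKM in the controls, against 4.92, 13.4 and 0.990 FPKM in the AVP libraries, groups that did not overlap, and limma gave a log2 fold change of -2.45 (SE 0.78) and an adjusted p of 0.388. Of 5 tested genes in this list 3 lay above 0 and 2 below.

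Of 23 genes of the membrane and its skeleton, 9 were at 0 in every library, including the band 3 partner Epb42 and Aqp1, and 4 were tested, 2 on either side of 0. Cd47, a signal against engulfment carried by most blood cells, was its most abundant gene at 43.1 to 110 FPKM. It was followed by the glucose transporter gene Slc2a1 (3.53 to 11.7 FPKM) and by Tspo2 (0 to 16.0 FPKM). Of 7 genes of dividing erythroblasts, 1, Mki67, was tested (0.969 to 2.70 FPKM), and the sum of the 7 was 1.22 to 2.99 FPKM; Ccna2 and Ccnb1 did not exceed 0.686 and 0.315 FPKM.

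Among 18 genes of haem synthesis and mitochondrial iron, 12 were tested, 5 above 0 and 7 below (median -0.12). Tmem14c, which moves a haem precursor into mitochondria, was at 116, 85.2 and 148 FPKM in the controls, against 48.2, 74.8 and 41.0 FPKM in the AVP libraries. These groups did not overlap, and the log2 fold change was -1.001 (SE 0.33), for which limma gave an adjusted p of 0.41. Slc25a39 (14.8 to 74.4 FPKM) and Isca1 (10.5 to 43.7 FPKM) overlapped between groups. Alad, the enzyme after Alas2, was listed at 0 in all 6 libraries.

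Of 15 genes found for reticulocyte maturation, 9 were tested, 8 above 0 and 1 below (median 0.47). Ubb, a ubiquitin gene used in all cells, was at 1400, 936 and 1404 FPKM in the controls, against 1844, 2599 and 1441 FPKM in the AVP libraries (log2 fold change 0.72, SE 0.26, adjusted p 0.459 by limma). Ube2b, a ubiquitin-conjugating enzyme, was at 251, 261 and 191 FPKM in the controls, against 264, 281 and 274 FPKM in the AVP libraries, again without overlap. Ube2l6 was highest in AVP replicate 1, at 217 FPKM against 68.2 to 105 FPKM elsewhere. Of 11 red cell enzymes 7 were tested, all 7 above 0 (median 0.24), led by Gpx1 (973 to 1786 FPKM) and Sod1, both present in many cells, and Nt5c3 (9.86 to 49.4 FPKM). Car1 and Pklr, which are more particular to red cells, were at 0 throughout.

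Of 6 other globin genes found, 5 were tested, 4 above 0 and 1 below (median 0.88). Hbb-y, the embryonic beta-like globin of the yolk sac, was at 1.37, 8.48 and 8.19 FPKM in the controls, against 18.05, 5.42 and 8.06 FPKM in the AVP libraries. Hbb-bh1, a further embryonic gene, was at 0.543, 8.57 and 5.54 FPKM in the controls, against 17.2, 0 and 7.92 FPKM in the AVP libraries. Both were highest in AVP replicate 1, as the adult genes were, and Hbb-y was lowest in control replicate 1. Hbb-y amounted to 0.133 to 0.744 FPKM per 10000 FPKM of adult haemoglobin. Its coding sequence was 74.4% identical to that of Hbb-bs and that of Hbb-bh1 73.9%, and 0 windows of 151 bases were shared with Hbb-bs in either. Whether fragments of adult messages entered these counts was not tested. Hbq1a, a theta-like globin gene, was at 14.6 FPKM in control replicate 3, at 13.6 and 6.50 FPKM in AVP replicates 1 and 2 and at 0 in the other 3.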

How the data were processed

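Total RNA of sorted neutrophils was made into TruSeq libraries and read as paired reads of 151 bases, per the labels' protocols. HISAT2 2.1, cutadapt 1.16.5, DESeq2 2.11.40.6, featureCounts 1.6.4, bcl2fastq 2.19 and the mm10 build are named per the submitters' processing notes, with roles and annotation not given in the sources used here. Values deposited by the authors are taken as FPKM: the headers name no unit, they are not whole, and multiplied by the longest transcript they sum to 929016 to 990655 per library, under the 1000000 of FPKM. They are not counts, so no count test was run.

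Members and lists were chosen with earlier results of these data known. The filter kept 8523 features that reached 1 FPKM in 3 or more libraries. A trimmed mean of log ratios (30% of ratios and 5% of levels trimmed) set the scale, and log2(FPKM + 1) was tested with limma 3.58.1 in R 4.3.3 (intensity trend, Benjamini-Hochberg adjustment over all features, threshold 0.05, no replicate term). Fold changes on this scale understate low genes. Printed FPKM are deposited values. The fit was tested on simulated data. Single values per library were compared by exact permutation. Of 8 ratios planned, 6 had no 0 and were tested. The text names all members, the 3 most abundant genes of each red cell list with any past the threshold, and 6 genes steadiest to each reference; other genes were named after their values were seen; of each marker list the 2 most abundant genes are named. Lengths and coding sequences come from GENCODE M21, coordinates and promoters from RefSeq GRCm38.p6, where 6 of the 9 members had a promoter. Python 3.11.15, pandas 2.3.3, numpy 2.4.6, matplotlib 3.10.9 and Biopython 1.88 were used. Some list genes are counted in their lists but not reported here by name.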

Additional observations from a re-analysis of the deposited data

Results flagged for a closer look

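Among the red cell genes reported here that the filter left out of the test, 2 listed at 0 in all 3 controls and at 1 FPKM or more in an AVP library were picked out. Slc4a1 was at 4.95 FPKM in AVP replicate 2, and Cpox, a later enzyme of haem synthesis, at 1.12 FPKM in AVP replicate 1. Because 0 in all controls was required, a control library could not be picked out in this way.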

How the results depend on the processing

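Over the alternatives, 0 members passed the adjusted threshold, with the replicate block (0 members) included. Deviations from the group means had correlations of 0.0205, -0.0129 and -0.0423 between same-numbered libraries and of -0.0356 to 0.0509 between differently numbered ones. With 3 libraries per group such values cannot decide whether the numbers pair samples. The titles do not say that they do, so the numbers are not treated as pairs. Other scalings, filters, pseudocounts, moderation and removal of the haemoglobin genes kept each tested member's direction. Leaving out 1 library in turn, the log2 fold change ranged from -0.05 to 0.52 for Hbb-bs, from -0.13 to 0.49 for Hbb-bt and from -0.07 to 0.43 for Bpgm. The haemoglobin share difference ranged from -0.69 to 6.38 percentage points, and the log2 difference of the ratio to haemoglobin from -0.35 to 0.35 for Alas2 and from -0.42 to 0.05 for Bpgm; the cause was not tested. Signs turned without AVP replicate 1 for Hbb-bs (-0.0519), Hbb-bt (-0.127), Bpgm (-0.0136) and the share, and without control replicate 1 for Bpgm (-0.0658). They also turned for Alas2 per haemoglobin without control replicate 1 (-0.0609), control replicate 2 (-0.119) or AVP replicate 2 (-0.346), and for Bpgm per haemoglobin without control replicate 3 (0.0471). Beta over alpha ranged from -0.21 to -0.14, and its sign could not turn because the groups did not overlap. Of all features, 0 were called higher after AVP in the main analysis, 0 to 4 with a library left out (4 without control replicate 3), 11 with a filter of 5 FPKM (fewer features tested), 3 with a pseudocount of 5 and 1 without the intensity trend, and 0 lower. Of the 6 genes most like haemoglobin 0, and of those most like Alas2 3, were kept without AVP replicate 1. Depth is an estimate, so no counting interval is given.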
